A study of Mus musculus with 25 samples.

Results

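The hairpins described here are 7 mouse miRNA precursors that are known, or annotated, to be made without the usual pair of cuts: the capped mmu-mir-484 and mmu-mir-320, the mirtrons mmu-mir-1224, mmu-mir-877 and mmu-mir-1981, mmu-mir-1839 from a small RNA of Cajal bodies, and mmu-mir-1983 from a transfer RNA (the prefix mmu- is left out below). They were chosen by name from the 1193 precursors of the deposited count table, by how they are made and not by their values, although earlier results of these data were known. Small RNA was sequenced from 1 brain hemisphere each of 25 C57BL/6 males, an inbred mouse strain, aged 2, 9, 15, 24 or 30 months, with 5 libraries per age. No treatment or genotype is named. The ages were spread over 6 sequencing lanes, lanes 3 to 8, and no age had a library in all of them. The question the design addresses is how small RNA levels in the brain differ between ages. By their titles the libraries came from separate animals, and p-values set differences against the spread between these libraries.

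Most miRNAs are released from a long transcript by the nuclear enzyme Drosha with its partner Dgcr8, and the resulting hairpin is then cut by Dicer in the cytoplasm. Noncanonical hairpins reach Dicer by other routes. In a mirtron the spliceosome cuts out a short intron that folds into a hairpin after debranching. In capped hairpins such as mir-320 and mir-484 transcription itself sets the hairpin's end, which carries a methylguanosine cap. Others come from a small nucleolar RNA (snoRNA), a relative of it in Cajal bodies (scaRNA), or a transfer RNA (tRNA). None of these routes needs Drosha, while all of them use Dicer.

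The hairpin sequences in the RefSeq miRNA table (build GRCm38.p6) are printed for 6 members. With their positions they show what the mirtrons, mir-1983 and mir-1839 coincide with. That mir-484 and mir-320 are capped is taken as known and cannot be read from sequence or position here. The 3 mirtrons are shown whole because each one is, from its first to its last base, a complete annotated intron: mir-1224 of Vwa5b2, which encodes a von Willebrand factor A domain protein, at chr16:20604452-20604536 on the plus strand; mir-877 of Abcf1, which encodes a translation factor, at chr17:35960730-35960814 on the minus strand; and mir-1981 of Marc2, which encodes a mitochondrial reductase, at chr1:184822407-184822488 on the minus strand. Capitals mark the splice-site dinucleotides, GU at the start and AG at the end.
mir-1224: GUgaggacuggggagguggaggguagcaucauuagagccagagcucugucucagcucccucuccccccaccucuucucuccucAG
mir-877: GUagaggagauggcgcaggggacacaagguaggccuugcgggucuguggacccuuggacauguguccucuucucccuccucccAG
mir-1981: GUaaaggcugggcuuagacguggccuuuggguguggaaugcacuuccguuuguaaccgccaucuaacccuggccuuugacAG
The introns are 85, 85 and 82 nucleotides long. In the GENCODE M21 annotation, of 1146 precursors matched to 1 miRNA gene, 20 coincide exactly with an intron, and 9 of these 20 were tested for age.

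The hairpin of mir-1983 at chr13:21896918-21897049, minus strand, contains the whole span of a RefSeq tRNA gene, n-TItat14, at 21896938 to 21897031. It was the only matched precursor that overlapped a RefSeq tRNA or ribosomal RNA gene. The hairpin of mir-1839 at chr7:81529916-81529988, plus strand, shares 66 of its 73 bases with an annotated scaRNA gene. It lies in an intron of the noncoding gene 2900076A07Rik in some transcripts and in an exon in others. Capitals mark the span of the tRNA gene and of the scaRNA gene.
mir-1983: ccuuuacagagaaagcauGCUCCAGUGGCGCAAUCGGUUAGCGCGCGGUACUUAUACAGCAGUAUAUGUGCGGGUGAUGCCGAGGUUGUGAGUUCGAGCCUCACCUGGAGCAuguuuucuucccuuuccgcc
mir-1839: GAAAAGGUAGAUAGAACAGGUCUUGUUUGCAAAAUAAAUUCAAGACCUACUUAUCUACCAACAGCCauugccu
Of the 21 bases of mature miR-1983, 13 lie inside the tRNA gene, at its 3′ end, and 8 lie beyond it.

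The capped hairpins have no host intron. mir-484, at chr16:14159626-14159692 on the plus strand, overlaps a UTR exon of Marf1 on the opposite strand and lies upstream of the nearest annotated transcript start on its own strand, that of Nde1. mir-320 lies on chromosome 14 at 70443510 to 70443591 on the plus strand. Its first base is 63 nucleotides from the start of Polr3d, a subunit of RNA polymerase III, which is transcribed in the opposite direction.
mir-484: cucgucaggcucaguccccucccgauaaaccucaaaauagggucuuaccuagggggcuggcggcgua

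**Figure D1:**
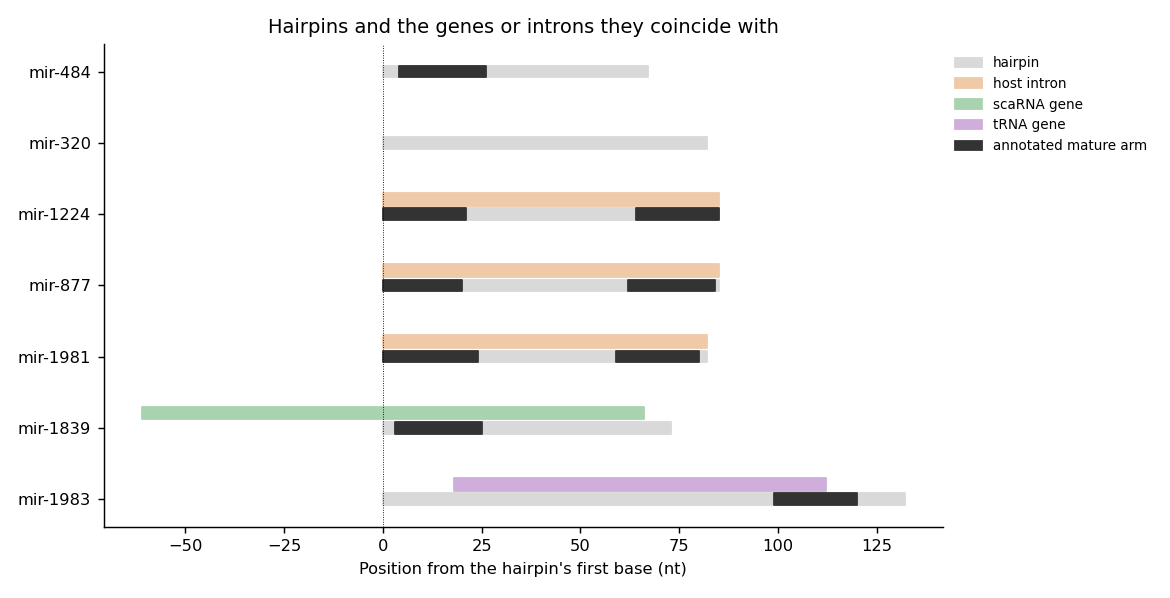
Each hairpin (grey) with its annotated mature arms (black) and the host intron, scaRNA gene or tRNA gene that coincides with it (coloured bar above), against the position in nucleotides from the hairpin's first base. The 3 mirtrons fill their introns exactly, the tRNA gene lies within the mir-1983 hairpin, and the scaRNA gene begins 61 nucleotides before mir-1839.

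The mature arms, printed with the seed (bases 2 to 8) in capitals because the seed decides which mRNAs a miRNA pairs with, differ from one another and fall into no shared family.
miR-484: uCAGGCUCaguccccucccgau
miR-1224-5p: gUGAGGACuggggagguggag
miR-1224-3p: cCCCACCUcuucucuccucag
miR-877-5p: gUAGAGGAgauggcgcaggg
miR-877-3p: uGUCCUCUucucccuccuccca
miR-1981-5p: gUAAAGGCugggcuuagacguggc
miR-1981-3p: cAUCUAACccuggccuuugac
miR-1839-5p: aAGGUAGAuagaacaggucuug
miR-1983: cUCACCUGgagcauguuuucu
Among the 1679 mature mouse miRNAs of the RefSeq table, only miR-1983 shared its seed with another, miR-412-3p. The 3′ arms of the mirtrons lie at the 3′ ends of their introns, where a pyrimidine-rich tract is usual: 90.9% of the bases of miR-877-3p, 85.7% of miR-1224-3p and 66.7% of miR-1981-3p were C or U, against a median of 50.0% over the table. The share of miR-1981-3p was no higher than that of miR-484 (68.2%) or miR-1983 (66.7%), which are no mirtrons. The deposited table counts both arms of a hairpin together, so no value below separates them.

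The libraries held 3.78 to 9.52 M reads, with a median of 5.61 M, and 620 to 734 precursors with reads. All 7 members had reads in all 25 libraries, from 75 reads at the lowest (mir-1983) to 4755 at the highest (mir-1839), and all passed the filter on low counts that left 425 precursors for testing. Levels are given as CPM, the counts of a hairpin relative to its library's total after TMM scaling. Together the 7 held 0.0953% to 0.139% of a library's reads. Brain markers were abundant: the 10 of them (mir-124, mir-9, mir-128, mir-219a-2, mir-338) summed to between 61680 and 83630 CPM in every library, while the liver miRNA mir-122 reached 5.99 CPM and heart mir-208a 6.94 CPM at most. The 12 markers of liver, heart, red cells, epithelia and endocrine cells summed to 814.7 to 2926 CPM at 30 months and 760 to 2507 CPM at 2 months. mir-122 and mir-208a were among the lowest of these 12, and others were higher and varied widely between libraries. Over all libraries mir-451a ran from 251 to 1280 CPM, mir-429 from 37.9 to 919 CPM and mir-200a from 11.4 to 453 CPM. In bulk tissue, fewer cells of a type and less RNA per cell cannot be told apart.

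**Figure D2:**
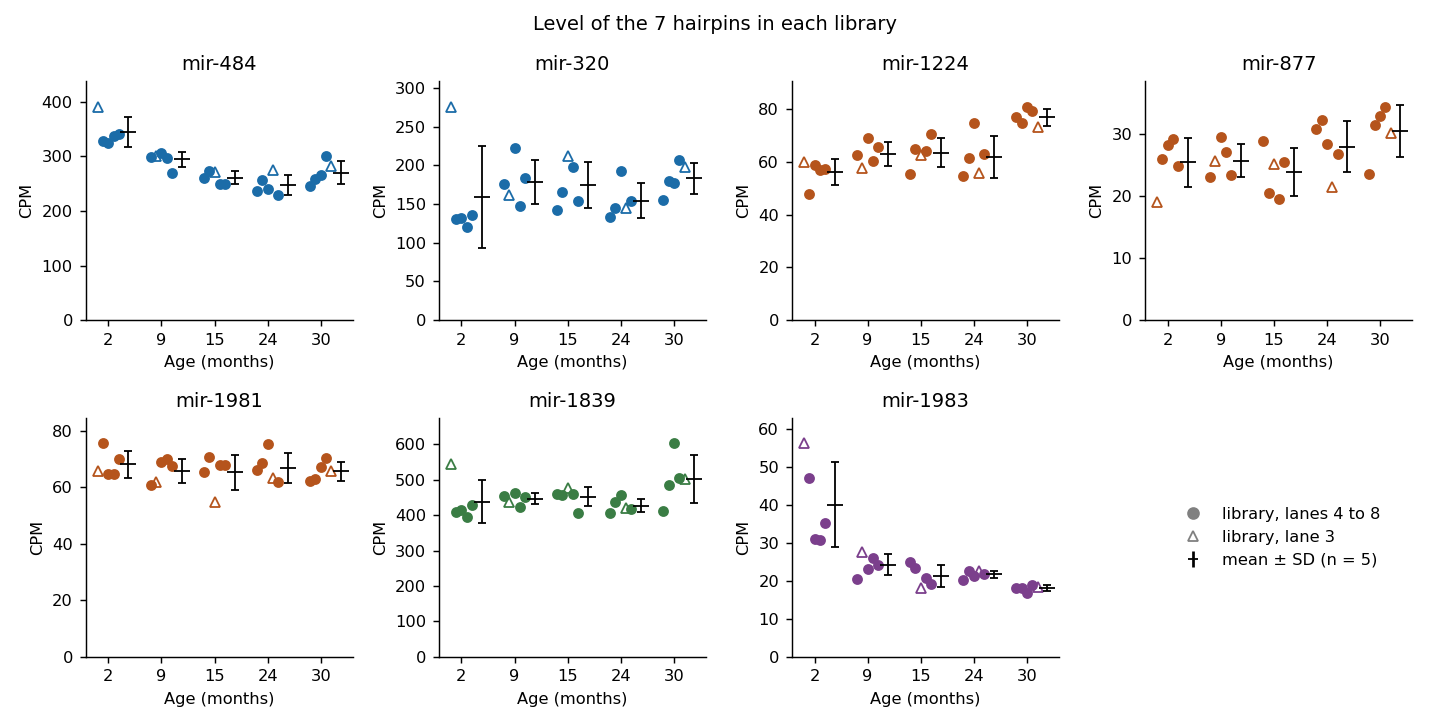
CPM of each hairpin in every library against age in months, with each axis starting at 0, open triangles for lane 3, filled circles for the other lanes, and bars for the mean ± SD of 5 libraries. mir-1983 and mir-484 are highest at 2 months, mir-1224 is highest at 30 months, and the 2-month library of lane 3 is the highest of its age for mir-320, mir-484, mir-1224, mir-1839 and mir-1983.

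Over the widest span, 30 against 2 months, 1 of the 7 hairpins rose and 2 fell. The mirtron mir-1224 rose 1.37-fold, the capped mir-484 fell to 0.786-fold and the tRNA-derived mir-1983 fell to 0.450-fold. The other 4 did not pass the test, and the median log2 fold change of the 7 was 0.19, against 0.05 over all 425. Of all 425 precursors, 36.9% passed at an adjusted p under 0.05 (19.1% higher and 17.9% lower at 30 months), so 3 of 7 is near that background. The split between directions moved with the scaling, with 50 of 141 called precursors higher under upper-quartile scaling. In edgeR with RLE scaling, the kind that DESeq2 uses, 68 of 157 were higher, and by DESeq2 itself 69 of 155. The split also moved with the libraries, with 52 of 133 higher when 30-month replicate 3 was left out. The test was edgeR's quasi-likelihood F test on 1 fit of all 25 libraries, with Benjamini-Hochberg adjustment over the 425. The CPM ranges of the 30-month and 2-month libraries were apart for the same 3 members, and for 21.4% of all precursors.

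**Figure D3:**
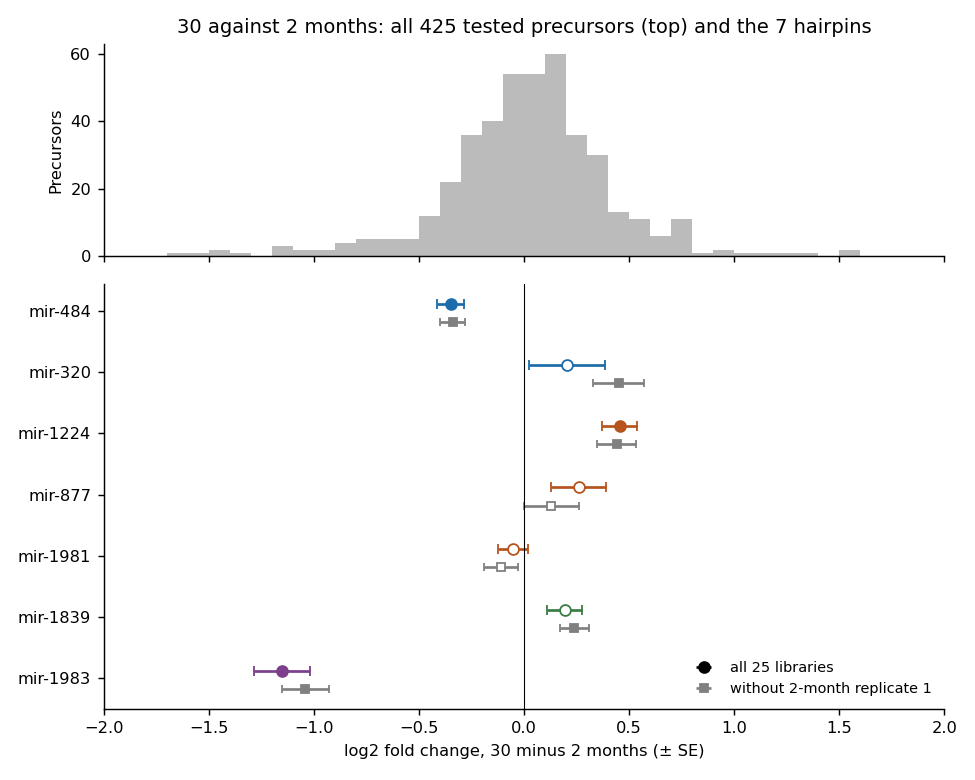
Log2 fold change of 30 against 2 months: a histogram of all 425 tested precursors (top; the x axis is log2 fold change and the y axis the number of precursors) and the 7 hairpins with their SE (bottom), where filled symbols have an adjusted p under 0.05. Grey squares leave out 2-month replicate 1, with which mir-320 (0.20 against 0.45 without it) and mir-1839 (0.19 against 0.24) change side.

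Of the capped hairpins, mir-484 fell, and it was the least variable of the 7 within an age. At 30 months its 5 libraries held 246, 258, 266, 300.3 and 283 CPM, against 391, 328, 324.3, 337 and 342 CPM at 2 months. Every 30-month library lay below every 2-month library. The log2 fold change was -0.35 ± 0.06 (SE, n = 5 per age; edgeR adjusted p = 1.50e-04), and in the 4 lanes that held both ages the difference was -0.47 to -0.36. Its mean was 345 ± 27.1 CPM at 2 months, 295 ± 14.5 at 9, 262 ± 11.6 at 15, 248 ± 18.3 at 24 and 271 ± 21.2 at 30 months (SD, n = 5 each), so the lowest mean was at 24 months. The libraries held 299, 300.5, 307, 298 and 269 CPM at 9 months, 260.0, 274, 272, 250.4 and 250.2 CPM at 15 months, and 236, 257, 240.5, 275 and 229 CPM at 24 months. From 9 months on, every library lay below the lowest 2-month library. Its SD within an age was 0.09 on the log2 scale, against a median of 0.16 over the tested precursors.

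Between neighbouring ages mir-484 passed only from 2 to 9 months, but its mean went on falling to 24 months. The sizes of the steps were not compared by a test. Against 2 months it was lower at 9 months (log2 fold change -0.23 ± 0.06, SE, edgeR adjusted p = 0.0387), and at 9 months its lowest and highest libraries had 269 and 307 CPM, against 324.3 and 391 at 2 months; ranges were apart like this for 5.65% of all precursors. Leaving out any 1 of 3 libraries ended that call: 2-month replicate 1 (-0.19, with an adjusted p of 0.0611), 2-month replicate 5 (an adjusted p of 0.0664) or 9-month replicate 5 (0.0556). It was also lost without lane 3 (-0.18, adjusted p = 0.0512), against 2-month replicates 3 to 5 alone (-0.18, adjusted p = 0.175), in a fit of just these ages (-0.23, adjusted p = 0.0983), with upper-quartile scaling (-0.26, adjusted p = 0.0655) and with no filter (-0.20, adjusted p = 0.107). The later steps did not pass: -0.17 ± 0.06 for 15 against 9 months (adjusted p = 0.660), -0.08 ± 0.06 for 24 against 15 (adjusted p = 0.676) and 0.13 ± 0.06 for 30 against 24 (adjusted p = 0.222). The last of these was above 0 in each of the 4 lanes holding both ages. As a linear slope over all libraries mir-484 fell by 0.16 ± 0.03 on the log2 scale per 12 months (edgeR adjusted p = 3.52e-04).

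mir-320, the other capped hairpin, rested on 1 library. At 30 months it had 155, 180, 178, 207 and 198 CPM, against 276, 131, 132, 120.2 and 136 CPM at 2 months. The first of the 2-month libraries, from lane 3, stood above all 24 others, and the remaining 4 lay below all 5 libraries of 30 months. With every library the log2 fold change was 0.20 ± 0.18 (SE, n = 5 per age, edgeR adjusted p = 0.405). Without 2-month replicate 1 it was 0.45 ± 0.12 (adjusted p = 0.00583), without lane 3 it was 0.44 ± 0.13 (adjusted p = 0.0101), and with lane as a covariate 0.23 ± 0.16 (adjusted p = 0.270). Within lanes the difference was -0.48 in lane 3 and 0.23, 0.58 and 0.38 in lanes 5, 6 and 7. In the other ages the libraries held 176, 162, 223, 148.0 and 184 CPM at 9 months, 143, 166, 213, 198 and 155 CPM at 15 months, and 134, 145, 193, 145 and 154 CPM at 24 months, all overlapping with one another. Their means were 178 ± 28.5 CPM at 9 months, 175 ± 29.6 at 15 and 154 ± 22.7 at 24 months (SD, n = 5 each). Without 2-month replicate 1 the difference of 9 against 2 months also passed (0.45, adjusted p = 0.0342), against 0.17 ± 0.18 with it (adjusted p = 0.635). The slope was 0.03 ± 0.07 per 12 months (adjusted p = 0.769).

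Of the 3 mirtrons, only mir-1224 passed a test. At 30 months it had 76.9, 74.7, 80.9, 79.4 and 73.0 CPM, against 60.0, 47.6, 59.0, 56.8 and 57.3 CPM at 2 months, and the 2 ages did not overlap. The log2 fold change was 0.45 ± 0.08 (SE, n = 5 per age; edgeR adjusted p = 1.51e-04), and the within-lane differences were 0.28 to 0.49 in 4 of 4 lanes. Between neighbouring ages the rise passed only from 24 to 30 months, and the sizes of the steps were not compared by a test. From 2 to 9 months the log2 fold change was 0.17 ± 0.08 (edgeR adjusted p = 0.231). Means were 56.1 ± 4.92 CPM at 2 months, 63.1 ± 4.49 at 9, 63.5 ± 5.39 at 15, 61.9 ± 8.12 at 24 and 77.0 ± 3.24 at 30 months (SD, n = 5 each). The libraries held 62.5, 57.8, 69.2, 60.2 and 65.8 CPM at 9 months, 55.5, 64.8, 62.7, 64.1 and 70.5 CPM at 15 months, and 54.5, 61.3, 74.9, 55.6 and 62.9 CPM at 24 months. No library before 24 months reached the lowest 30-month one. Between 24 and 30 months it rose by a log2 fold change of 0.32 ± 0.08 (edgeR adjusted p = 0.0205). Its 30-month libraries held 73.0 to 80.9 CPM, against 54.5 to 74.9 CPM at 24 months, so these ages overlapped in 1 library, while the ranges of 5.41% of all precursors were apart. That call was lost without lane 3 (0.27, adjusted p = 0.0808), with upper-quartile scaling (0.25, adjusted p = 0.0663), with no filter (0.29, adjusted p = 0.108), when the fit held just these ages (0.31, adjusted p = 0.0595), and without 24-month replicate 1, 2, 4 or 5 or 30-month replicate 3 or 4 (0.26 to 0.31, adjusted p from 0.0563 to 0.0799). The slope was 0.15 ± 0.04 per 12 months (adjusted p = 0.00186).

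mir-877 and mir-1981 gave no call between neighbouring ages or between 2 and 30 months. Other pairs of ages were not tested. mir-877 averaged 30.4 ± 4.21 CPM at 30 months, with a range of 23.4 to 34.3, and 25.4 ± 3.93 CPM at 2 months, with a range of 19.1 to 29.1 (SD, n = 5 each). The log2 fold change was 0.26 ± 0.13 (edgeR adjusted p = 0.121), and 0.13 without 2-month replicate 1 (adjusted p = 0.447), the library in which it was lowest. Its slope of 0.11 ± 0.05 per 12 months did not pass (adjusted p = 0.0785) but did without 24-month replicate 4 (0.12, adjusted p = 0.0443). mir-1981 averaged 65.7 ± 3.30 CPM at 30 months and 68.2 ± 4.74 CPM at 2 months (SD, n = 5 each), a log2 fold change of -0.05 ± 0.07 (adjusted p = 0.600). Its mean lay between 65.3 and 68.2 CPM at every age, the 25 libraries spanned 54.8 to 75.6 CPM, and its 5 age means did not differ beyond their SD.

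mir-1839, the scaRNA-derived hairpin, had 413, 485, 603, 505 and 503 CPM at 30 months, against 545, 408, 416, 395 and 429 CPM at 2 months. The ages overlapped, with 2-month replicate 1 above 4 of the 5 libraries of 30 months. The log2 fold change was 0.19 ± 0.08 (SE, n = 5 per age, edgeR adjusted p = 0.0692). The call depended on the libraries: 0.24 (adjusted p = 0.00811) when 2-month replicate 1 was left out, 0.22 (adjusted p = 0.0279) when 30-month replicate 1 was, and 0.25 (adjusted p = 0.0128) when lane 3 was, but 0.09 (adjusted p = 0.401) when 30-month replicate 3, its highest library, was. Within lanes 3, 5, 6 and 7 the difference was -0.12, -0.01, 0.30 and 0.49. Means were 446 ± 15.4 CPM at 9 months, 452 ± 26.8 at 15 and 427 ± 19.6 at 24 months (SD, n = 5 each), and 30 against 24 months gave 0.23 ± 0.08 (adjusted p = 0.0888). That step was above 0 in 4 of 4 lanes, and passed with lane as a covariate (0.25, adjusted p = 0.0238). Leaving out 2-month replicate 1 gave 0.21 (adjusted p = 0.0395) and leaving out 30-month replicate 1 gave 0.27 (adjusted p = 0.0196), while leaving out 30-month replicate 3 gave 0.14 (adjusted p = 0.291).

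mir-1983 fell the most of the 7, and only 7 of the 425 precursors had a lower log2 fold change. At 30 months it had 18.1, 18.0, 16.7, 18.8 and 18.4 CPM, against 56.3, 47.0, 31.1, 30.7 and 35.4 CPM at 2 months. The 30-month libraries lay close together, while the 2-month libraries were spread widely, with replicates 1 and 2, whose animal numbers stand far from the others, above the other 3. The log2 fold change was -1.15 ± 0.13 (SE, n = 5 per age; edgeR adjusted p = 1.00e-06). Against 2-month replicates 3 to 5 alone it was -0.87 ± 0.10 (adjusted p = 2.32e-06), and within the 4 lanes it ran from -1.59 in lane 3 to -0.75 in lane 6. Beside it, of 2 tested hairpins known to match ribosomal RNA, mir-6236 rose (4.11 ± 0.658 CPM at 30 months and 1.90 ± 1.15 CPM at 2 months, SD, n = 5 each; log2 fold change 1.11 ± 0.29, adjusted p = 0.00486). The second, mir-6240, lay at 0.17 ± 0.14 (adjusted p = 0.387). The part of RNA fragments in the level of mir-1983 was not tested.

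Of the 4 intervals, the one from 2 to 9 months gave the only call of mir-1983 in the fit of all libraries. It averaged 24.3 ± 2.79 CPM at 9 months, 21.3 ± 2.88 at 15 and 21.8 ± 0.949 at 24 months (SD, n = 5 each). The libraries held 20.4, 27.7, 23.1, 25.9 and 24.1 CPM at 9 months, 24.9, 23.4, 18.1, 20.7 and 19.1 CPM at 15 months, and 20.4, 22.7, 21.4, 22.6 and 21.9 CPM at 24 months, so these ages overlapped with one another. Between 2 and 9 months the log2 fold change was -0.72 ± 0.13 (edgeR adjusted p = 0.00124), and the 9-month libraries, at 20.4 to 27.7 CPM, lay below the 2-month ones, at 30.7 to 56.3 CPM. The size of that first step depended on the 2-month libraries: set against 2-month replicates 3 to 5 alone it was -0.42 ± 0.10 (adjusted p = 0.0320). In a fit of just these ages it was -0.72 and the call was lost (adjusted p = 0.0504). The later steps were -0.20 ± 0.13 for 15 against 9 months, 0.04 ± 0.13 for 24 against 15 and -0.27 ± 0.13 for 30 against 24 (adjusted p from 0.222 to 0.996). The last was below 0 in 4 of 4 lanes (-0.43 to -0.17) and passed in a fit of just those ages (-0.28, adjusted p = 0.0397). The slope was -0.42 ± 0.06 per 12 months (adjusted p = 1.20e-05).

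**Figure D4:**
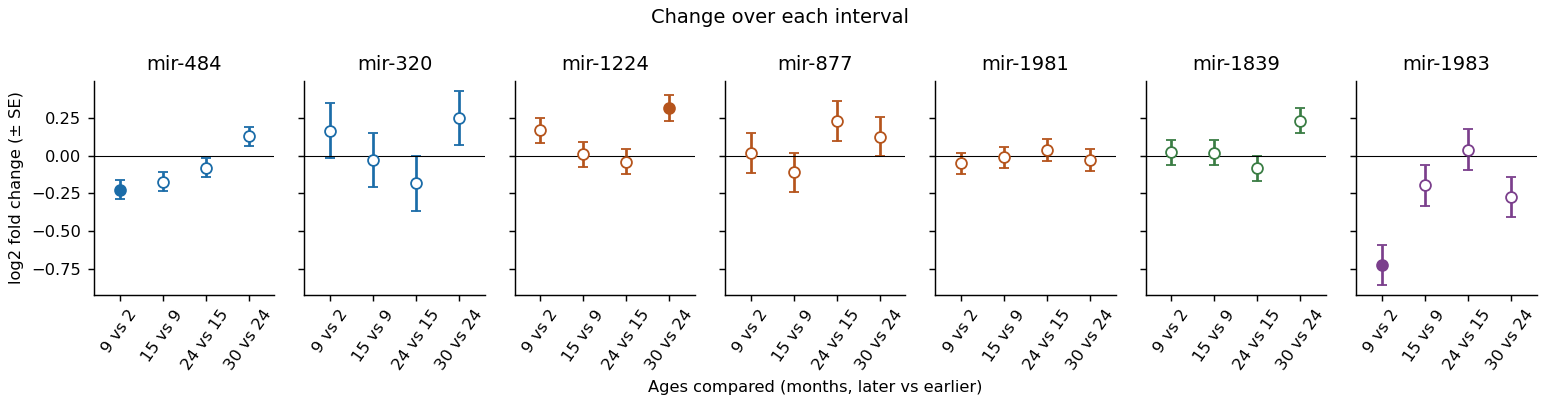
Log2 fold change (± SE) of each hairpin over the 4 intervals between neighbouring ages, the later against the earlier age; filled symbols have an adjusted p under 0.05. The falls of mir-484 and mir-1983 pass between 2 and 9 months, and the rise of mir-1224 passes between 24 and 30 months.

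Over these intervals the background also differed. For 9 against 2 months 2 members passed, both lower, while 7.76% of all precursors passed (1.88% higher and 5.88% lower). That split turned without lane 3, where 21 of 40 called precursors were higher. Without 2-month replicate 4 it kept its direction but was nearer to even, with 16 of 39 higher. For 15 against 9 months edgeR called no precursor (0.0%), with 27 at an unadjusted p under 0.05 and 2 by DESeq2, and for 24 against 15 months it called 1 (0.235%). None of the 7 was called in either step by edgeR or DESeq2, with 1 member (mir-484) at an unadjusted p under 0.05 in the first and 0 in the second. For 30 against 24 months 1 member passed, where 8.71% of all did (6.12% higher and 2.59% lower). That split turned with upper-quartile scaling, where 11 of 30 called precursors were higher, and with library totals, where 20 of 43 were. On the slope 3 members passed, 1 upward and 2 downward, against 35.5% of all (19.5% upward and 16.0% downward). That split turned too, with 54 of 126 called precursors upward under upper-quartile scaling and 62 of 141 under RLE scaling.

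Within the capped hairpins and within the mirtrons, and between mir-1983 and mir-1839, which both overlap another small RNA gene, pairs were compared through the log2 ratio of their CPM in each library, which scaling between libraries hardly touches. The 5 pairs were chosen after the values were seen, and the test was a two-sided exact permutation test over the 5 libraries of each age, whose smallest possible p is 0.00794, adjusted over the 5 pairs. Among mirtrons, the ratio of mir-1224 to mir-1981 was 0.23 ± 0.06 at 30 months and -0.28 ± 0.22 at 2 months (SD, n = 5 each), a difference of 0.51 with no overlap (exact adjusted p = 0.0198). The ratio of mir-1224 to mir-877 differed by 0.20 (exact adjusted p = 0.262), and that of mir-877 to mir-1981 by 0.31 (exact adjusted p = 0.0694). The first of these depended on 2-month replicate 1, without which it differed by 0.32 (exact adjusted p = 0.0198). The second passed without 30-month replicate 1 (0.38, exact adjusted p = 0.0265).

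The ratio of the capped mir-484 to mir-320 was 0.56 ± 0.06 at 30 months and 1.19 ± 0.39 at 2 months (SD, n = 5 each). The difference of -0.62 did not pass (exact adjusted p = 0.0694), and without 2-month replicate 1 it was -0.79 (exact adjusted p = 0.0198). The ratio of the tRNA-derived mir-1983 to the scaRNA-derived mir-1839 was -4.75 ± 0.24 at 30 months and -3.47 ± 0.27 at 2 months, a difference of -1.29 with no overlap (exact adjusted p = 0.0198).

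Other hairpins of the same origins gave few that could be tested. Of 24 further precursors with both ends within 10 nucleotides of the ends of 1 intron, 14 had reads in most libraries and 7 were tested. Between 30 and 2 months 1 fell and 0 rose by edgeR, where 17.9% of all tested precursors fell and 19.1% rose. The median log2 fold change was -0.20, against 0.05 over all. The one that fell was mir-6944, in an intron of the actin-binding drebrin gene Dbn1, which averaged 34.0 ± 4.71 CPM at 30 months and 55.6 ± 8.07 CPM at 2 months (SD, n = 5 each; log2 fold change -0.70 ± 0.12, edgeR adjusted p = 4.21e-05). Without 2-month replicate 1 a further one passed. The 5 other hairpins of this list with the highest means did not pass: mir-3102, in Arhgef17, at -0.14 ± 0.11, mir-7080, in Cpne7, at -0.20 ± 0.14, mir-1982, in Oaz1, at 0.15 ± 0.17, mir-3547, in Baiap3, at -0.30 ± 0.22, and mir-702, in Plod3, at -0.11 ± 0.21 (adjusted p from 0.256 to 0.680).

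Of 11 further precursors in snoRNA or scaRNA genes, 8 were tested, and 4 rose and 0 fell between 30 and 2 months, where 19.1% of all tested precursors rose and 17.9% fell. The median log2 fold change was 0.26, against 0.05 over all. The number called was 3 without 2-month replicate 1, without 30-month replicate 3, against 2-month replicates 3 to 5 alone or in a fit of just these ages, and 5 with no filter. The most abundant were the paralogs mir-1843b, in Scarna3a, at 1210 ± 73.6 CPM at 30 months and 986 ± 48.3 CPM at 2 months (SD, n = 5 each; log2 fold change 0.30 ± 0.05, edgeR adjusted p = 1.54e-04), and mir-1843a, in Scarna3b (0.27 ± 0.05, adjusted p = 4.09e-04). Both also rose between 24 and 30 months (0.18 ± 0.05, adjusted p = 0.0444, and 0.22 ± 0.05, adjusted p = 0.0178). Reads of these paralogs could be divided between them in the counting. mir-6516 rose by 0.50 ± 0.13 (adjusted p = 0.00294) and mir-3084-1 by 0.69 ± 0.21 (adjusted p = 0.0132), both near 10 CPM. mir-664, in Snora36b, at 0.03 ± 0.07, mir-3068 at 0.02 ± 0.07 and mir-677 at 0.04 ± 0.10 did not pass (adjusted p from 0.753 to 0.841).

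**Figure D5:**
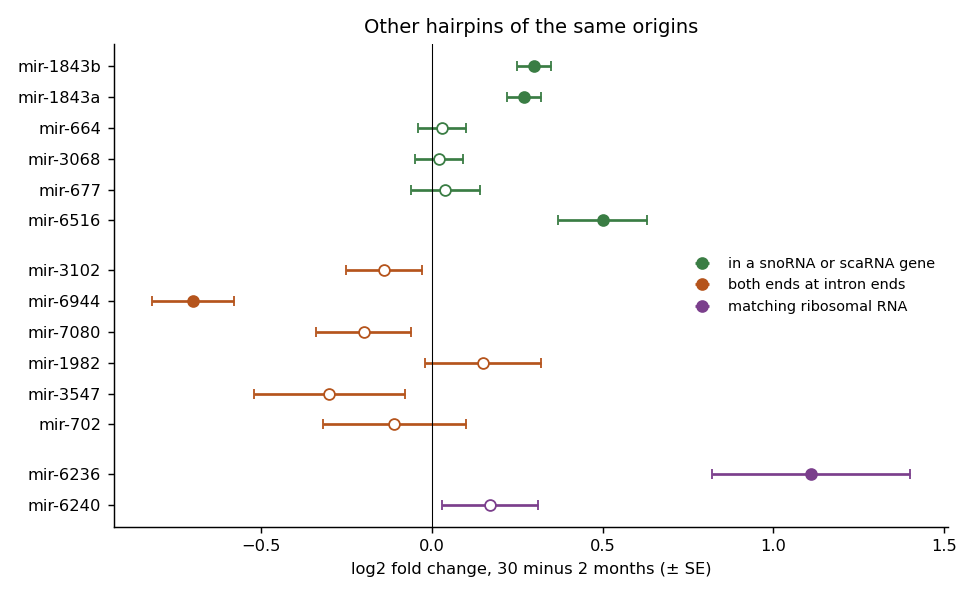
Log2 fold change (± SE) of 30 against 2 months for other hairpins of the same origins, the most abundant of each list; filled symbols have an adjusted p under 0.05. Filled symbols lie above 0 for mir-1843b, mir-1843a, mir-6516 and mir-6236 and below 0 for mir-6944.

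The precursors whose levels followed each member most closely over the 25 libraries are given by their correlation. Precursors averaging 10 CPM or more were compared by Pearson r of log2(CPM + 0.5). mir-484 was most like mir-673 (0.87), mir-212 (0.85) and mir-186 (0.79). mir-1983 was most like mir-3544 (0.90), mir-212 (0.88) and mir-376c (0.86). mir-320 was most like let-7c-1 and let-7c-2 (0.90 each) and mir-672 (0.87), and mir-1839 most like let-7e (0.87), let-7f-2 and let-7f-1 (0.84 each). mir-1224 was most like mir-219a-1 and mir-33 (0.78 each) and let-7i (0.76). The likeness was weaker for mir-877, led by mir-338 (0.62), mir-3065 (0.61) and mir-3084-2 (0.59), and for mir-1981, led by mir-194-1 (0.61), mir-132 (0.55) and mir-22 (0.54). These are the highest of many values, over libraries that share age, lane and depth, and are given as a description.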

How the data were processed

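The values deposited by the authors are raw counts for each miRNA hairpin, both arms together, in 25 libraries prepared with a TruSeq small RNA kit per the labels' protocols. Software listed in the submitters' processing notes was Trimmomatic 0.36, SAMtools 1.3.1-9 and bcl2fastq 1.8.4. How reads were aligned and counted, on which build and strand, and how multiple matches were treated is not given in the sources used here, so reads of a tRNA, a scaRNA or a paralog could be counted in a hairpin they match. Such reads are not unique molecules, and the tests took in the spread between animals as well as counting error.

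Tests used edgeR 4.0.16 and DESeq2 1.42.0 in R 4.3.3, and figures used matplotlib 3.10.9 in Python 3.11.15. Precursors were filtered with filterByExpr and scaled by TMM (factors 0.952 to 1.04). Log2 fold changes came from 1 quasi-likelihood fit of all libraries in which each age had its own mean, the slope from a fit on age in months, and SE from the size of the change divided by the square root of F. P-values were adjusted over the 425 precursors of the main fit, and in each alternative over the precursors it tested. Scripts were tested on simulated data. Lanes, read from the column names, were treated as batches. Replicate numbers follow the order of deposition. The members and lists were chosen with earlier results of these data known. Named were all members with reads in most libraries, the 6 most abundant other hairpins of the intron and snoRNA lists and those called, hairpins known to match ribosomal RNA with reads in most libraries, and the 3 precursors most like each member. Alternatives were other scalings, filters and tools, lane settings, fewer 2-month libraries, only the 2 ages compared, and each library left out.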

Additional observations from a re-analysis of the deposited data

Results flagged for a closer look

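Of 35 groups of 5 libraries (7 hairpins at 5 ages), 5 held a library whose gap to its nearest neighbour exceeded Dixon's limit for 5 values; chance alone flags about 1 group in 20. Of these 5 libraries, 3 were 2-month replicate 1, of lane 3. It had 276 CPM of mir-320, against 120.2 to 136 CPM in the other 4 libraries of its age. It had 391 CPM of mir-484, against 324.3 to 342 CPM, and 545 CPM of mir-1839, against 395 to 428.7 CPM. 2-month replicate 2 had 47.6 CPM of mir-1224, against 56.8 to 60.0 CPM in the others of its age. 9-month replicate 5 had 269 CPM of mir-484, against 298 to 307 CPM.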

How the results depend on the processing

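The 30 against 2 months calls of mir-484 (-0.42 to -0.33), mir-1224 (0.36 to 0.47) and mir-1983 (-1.26 to -0.87) and their slopes held under every alternative run. The number of members called for 30 against 2 months was 3, but 5 without lane 3 and with only 2-month replicates 3 to 5 (3 to 5 with 1 library left out). For 9 against 2 months it was 2, but 1 with upper-quartile scaling, no filter or only 2-month replicates 3 to 5, and 0 with only the libraries of those ages (1 to 2 with 1 left out). Without lane 3 or without 2-month replicate 1 the 2 were mir-1983, lower, and mir-320, higher, in place of mir-484. For 30 against 24 months the number was 1, but 0 with upper-quartile scaling, no filter or without lane 3, and 2 with lane as a covariate (0 to 2). In the fit of only those ages the 1 was mir-1983, lower, in place of mir-1224. Of the 425 precursors of the main fit, 33 were called for 9 against 2 months. Settings that change the filter tested other numbers of precursors. The number called was 15 with no filter, 50 with lane as a covariate and 9 with only 2-month replicates 3 to 5 or only those ages (19 to 39 with 1 left out). For 15 against 9 months 0 were called, against 1 with library totals and 2 with DESeq2 (0 to 1). For 24 against 15 months 1 was called, against 0 with upper-quartile scaling, no filter, a 10 CPM minimum or without lane 3, and 2 with DESeq2 or a lane covariate (0 to 1). For 30 against 24 months 37 were called, against 20 with no filter and 19 with only those ages (16 to 53). The fit of only 2 ages holds fewer libraries and the fit with no filter adjusts over more precursors. What moved these numbers was not tested.

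Changes near 0 reversed sign and were called under none of these settings. With upper-quartile scaling these were, for 9 against 2 months, mir-877 (-0.01) and mir-1839 (-0.01), and mir-1224 for 15 against 9 (-0.01) and 24 against 15 (0.01). Without lane 3 they were mir-877 for 9 against 2 (-0.06), mir-1224 (-0.02), mir-1981 (0.02) and mir-1839 (-0.01) for 15 against 9, and mir-1981 (-0.0035) and mir-1983 (-0.03) for 24 against 15. With a lane covariate mir-1839 was -0.01 for 15 against 9, and with only 2-month replicates 3 to 5 mir-877 was -0.09 for 9 against 2. With 1 library left out, values of either sign were found for mir-877 (-0.08 to 0.08) and mir-1839 (-0.01 to 0.10) for 9 against 2, mir-1224 (-0.04 to 0.05), mir-1981 (-0.05 to 0.06) and mir-320 (-0.10 to 0.07) for 15 against 9, mir-1981 (-0.03 to 0.07) and mir-1983 (-0.03 to 0.09) for 24 against 15, and the slope of mir-320 (-0.01 to 0.09). No paired analysis was possible because no animal number is shared between ages; the fit with lane as a covariate and the values within lanes set libraries of the same lane against each other. Scaling moved the median of all precursors by under 0.1 on the log2 scale. Counts as low as 75 reads for mir-1983 and 90 for mir-877 limit the precision of these hairpins.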
